A study of Mus musculus with 6 samples.

Results

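The microRNAs described here are the mature products of the miR-290 cluster (miR-290 to miR-295) and the miR-302 cluster (miR-302a to d and miR-367), chosen by name as the array probes mmu-miR-290 to mmu-miR-295, with or without a letter, mmu-miR-302a to mmu-miR-302d and mmu-miR-367. They were 28 of the 1900 mouse miRNA probes on the array, 18 from the miR-290 cluster and 10 from the miR-302 cluster, with 14 probes for 3p arms and 14 for 5p arms. The samples were bone marrow cells of adult male mice. The tested cells came from db/db mice, a type 2 diabetes model homozygous for a leptin receptor mutation, and the control cells came from db/+ mice of the same colony, which carry 1 copy of the mutation. There were 3 arrays for each genotype, and the labels name no agent given to either. In both groups, mononuclear marrow cells were grown in an endothelial growth medium, freed of non-adherent cells after 4 days and grown for 3 days more, so the RNA came from a mixed adherent culture that the labels name bone marrow-derived progenitor cells. The labels do not say whether the 3 samples of a group came from separate mice, and the p-values therefore measure the spread between samples, which may be partly technical.

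A miRNA is cut from a hairpin that can release a strand from either side, the 5p arm and the 3p arm. The bases next to its 5′ end, the seed, pair with target transcripts. In mouse embryonic stem cells the miR-290 cluster is among the most abundant sources of miRNA, while the miR-302 cluster is low there and higher in the later, epiblast-like state of pluripotency. Several of their 3p arms are known for promoting rapid passage through the early cell cycle and for aiding reprogramming, and both clusters are low in most adult tissues. Their main seed resembles that of the miR-17 family, which many dividing tissues express, and the miR-367 seed is that of the miR-25 and miR-92 group.

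The 3p arms carried 8 different seeds. The sequences below are shown because a shared seed sets 6 of the 14 3p arms apart as a family. They are mature sequences, 5′ to 3′, with the seed (bases 2 to 8) in capitals. The first 6 share the seed AAGUGCU, which no other probe on the array carried.
miR-291a-3p: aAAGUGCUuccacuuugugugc
miR-294-3p: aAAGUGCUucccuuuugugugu
miR-295-3p: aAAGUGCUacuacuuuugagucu
miR-302a-3p: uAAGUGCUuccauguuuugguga
miR-302b-3p: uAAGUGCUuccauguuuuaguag
miR-302d-3p: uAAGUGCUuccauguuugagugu
miR-302c-3p: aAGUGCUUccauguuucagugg
miR-290a-3p: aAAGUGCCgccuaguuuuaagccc
miR-367-3p: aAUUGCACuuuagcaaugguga
The same letters begin 1 base earlier in miR-302c-3p, so its bases 2 to 8 read AGUGCUU. The seed of miR-290a-3p, AAGUGCC, was shared with miR-292a-3p and with miR-467a-5p, a probe of another cluster. The seed of miR-367-3p, AUUGCAC, was shared with miR-25-3p, miR-32-5p, miR-92a-3p, miR-92b-3p and miR-363-3p. The other 3p arms, miR-290b-3p, miR-291b-3p, miR-292b-3p and miR-293-3p, each had a seed that no other 3p arm of the clusters shared.

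The sequences are those deposited with the array. RefSeq mature entries were found for 26 of the 28 probes, and all 26 were identical to the deposited sequences. In the RefSeq annotation of GRCm38.p6, the matched products of the miR-290 cluster lay within chr7:3218638-3220837 on mouse chromosome 7 and those of the miR-302 cluster within chr3:127545238-127545800 on chromosome 3. The products of miR-290b and miR-292b lay on the minus strand, antisense to miR-290a and miR-292a.

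The 5p arms do not carry the stem-cell seed. They differ among themselves in a stretch of G in their middle, and the next sequences show it, with the longest run of G in capitals where it reaches at least 4 bases.
miR-290a-5p: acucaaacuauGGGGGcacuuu
miR-292a-5p: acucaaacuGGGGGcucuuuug
miR-295-5p: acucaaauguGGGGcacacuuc
miR-302c-5p: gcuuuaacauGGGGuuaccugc
miR-293-5p: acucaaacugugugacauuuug
The run spans bases 12 to 16 of miR-290a-5p and 10 to 14 of miR-292a-5p, and bases 11 to 14 of both miR-295-5p and miR-302c-5p. These were the only 4 of the 28 members with such a run. The sequence of miR-293-5p opens like that of miR-292a-5p and lacks it.

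Each miRNA had 2 spots on an array, and its signal is the mean of their median brightness in the scanner's linear intensity units. The 4 blank spots of each array, which carry no probe, served as the background. Their medians were 44.0, 56.5 and 73.0 on db/db replicates 1, 2 and 3, against 97.2, 63.9 and 39.1 on db/+ replicates 1, 2 and 3. A probe was called above the blanks on an array where its signal passed the 95th percentile of those 4 spots, which makes the threshold itself imprecise. All 4 blanks lay in row 1 of 128, and the low end of the probe signals differed by row, as the plot of the local floor shows. On db/db replicate 1 and db/+ replicate 3, 1855 and 1701 of the 1900 probes passed the threshold, whereas the remaining arrays had 851 and 751 probes above it in db/db and 971 and 1125 in db/+. These 2 arrays stand apart by this rule, and counts of members above the blanks are given with and without them. By a position-adjusted rule described below, db/+ replicate 3 did not: 1309 probes passed on it, against 1349 and 1466 on db/+ replicates 1 and 2. On db/db replicate 1, 1822 passed, against 1206 and 915 on db/db replicates 2 and 3. Precision throughout is limited by having 3 arrays a group.

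**Figure D1:**
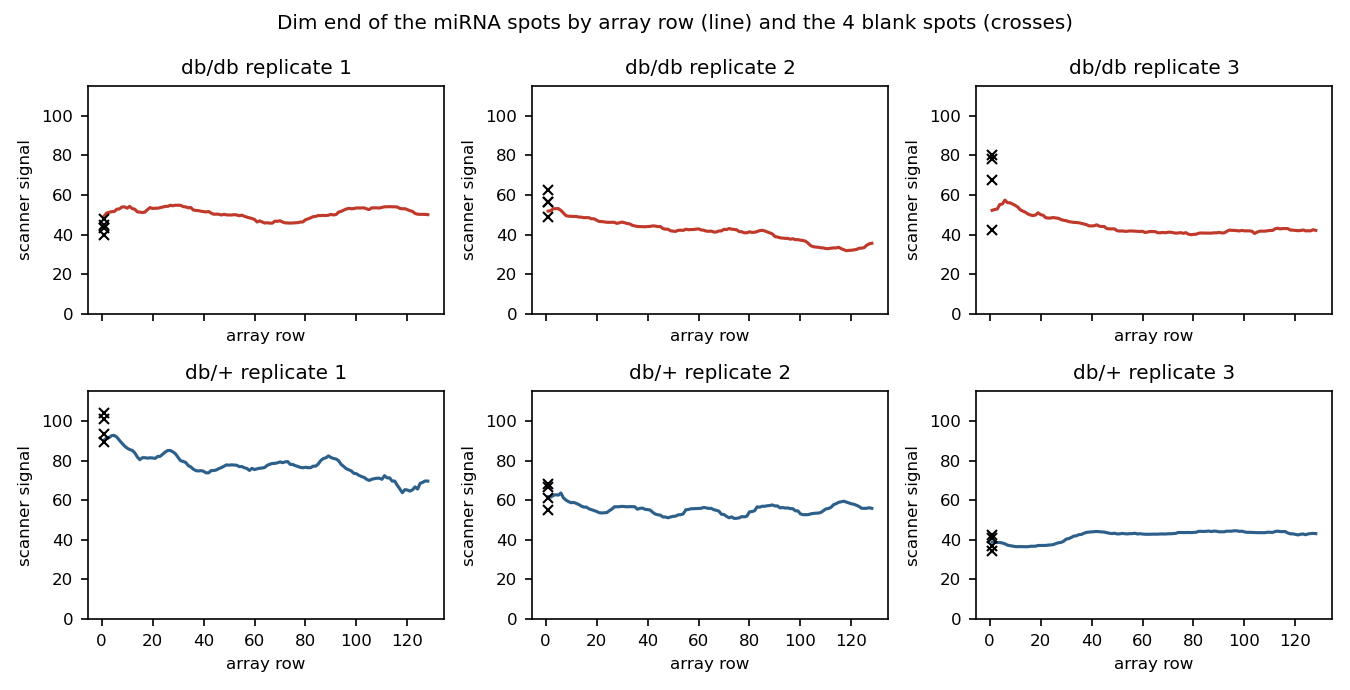
Local floor of each array (10th percentile of miRNA spot signals within 4 rows, in scanner intensity units) against array row, db/db arrays before db/+ arrays, with the blank spots marked in row 1. On db/db replicate 1 the local floor beside the blanks was 49.3 with a blank median of 44.0, and on db/db replicate 3 it was 52.2 with a blank median of 73.0.

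The 3p arms, 6 of which carry the stem-cell seed AAGUGCU, lay close to the level of the blank spots. On the 4 arrays outside the pair named above, 1 of 14 3p arms (7.14%) passed the blanks on any array: miR-290a-3p on db/+ replicate 2. Of all 1900 probes, 1207 (63.5%) passed on any of these 4 arrays. Over all arrays, the number of 3p arms above the blanks was 14, 0 and 0 in db/db, against 0, 1 and 11 in db/+. Expressed as a ratio to the array's blank median, which sets a probe against background and does not compare abundance between probes, the 3p arms ranged from 0.534 to 1.58 with a median of 0.870. Only 1 of 14 (7.14%) passed on at least 3 arrays, against 470 of 791 (59.4%) of all 3p probes. By this rule the 3p arms other than miR-290a-3p were not detectable on these 4 arrays, which does not show that the cells lacked them. The blanks lie in row 1 only, and when every spot and blank was divided by the local floor of its own rows before the same comparison, a position-adjusted rule chosen after the data were seen, 9, 2 and 0 of the 3p arms passed in db/db, against 4, 4 and 4 in db/+. Under it 3 of 14 (21.4%) passed on at least 3 arrays, against 572 of all 791 3p probes (72.3%). These 3 were miR-290a-3p and miR-294-3p, on 5 arrays each, and miR-290b-3p, on 3 arrays.

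Of the AAGUGCU family, mmu-miR-291a-3p, shown in mouse cells to aid reprogramming, had signals of 56.3, 40.5 and 42.8 in db/db, against 85.6, 55.9 and 46.2 in db/+. The signals of mmu-miR-294-3p, which promotes the cycling of mouse embryonic stem cells, were 56.8, 48.9 and 45.3 in db/db, against 90.3, 65.4 and 48.6 in db/+. Those of mmu-miR-295-3p, which also promotes it, were 47.9, 35.7 and 42.6 in db/db, against 64.5, 60.4 and 45.9 in db/+. For each of these 3 probes the groups overlapped, and only db/db replicate 1 and db/+ replicate 3 passed the blanks. By the position-adjusted rule, mmu-miR-294-3p passed on every array except db/db replicate 3, while mmu-miR-291a-3p passed on 2 arrays and mmu-miR-295-3p on 0. The highest signal of each was on db/+ replicate 1, where the blanks were also brightest.

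The miR-302 members of the family, used in reprogramming mixtures, lay in a similar range. The signals of mmu-miR-302a-3p were 49.1, 41.9 and 48.8 in db/db, against 64.2, 53.6 and 40.2 in db/+. Those of mmu-miR-302d-3p were 52.9, 42.2 and 46.3 in db/db, against 69.7, 52.5 and 40.7 in db/+. Both passed the blanks only on db/db replicate 1. For mmu-miR-302b-3p the signals were 48.8, 41.2 and 46.9 in db/db, against 99.0, 54.4 and 39.7 in db/+. The value of 99.0 on db/+ replicate 1 is the mean of spots that disagreed: the first had a signal of 140 with a pixel SD of 130.2, and the second a signal of 57.7. It did not pass the blanks there. Outside the family, mmu-miR-367-3p, made from the same transcript as miR-302, had signals of 49.2, 37.5 and 39.0 in db/db, against 75.6, 55.0 and 42.6 in db/+, and passed the blanks on db/db replicate 1 and db/+ replicate 3 only.

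The remaining 3p arms were miR-290b-3p, miR-291b-3p, miR-292a-3p, miR-292b-3p, miR-293-3p and miR-302c-3p, and each passed the blanks on db/db replicate 1 and db/+ replicate 3 alone. The only 3p probe above the blanks on at least 3 arrays was miR-290a-3p, with signals of 69.8, 51.7 and 60.0 in db/db, against 102, 70.7 and 53.3 in db/+. It passed the blanks on 1 db/db array and 2 db/+ arrays.

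The authors' deposited value table, which holds background-subtracted and scaled intensities, also held low values for the 3p arms. In it, 43 of the 84 values of 3p arms (51.2%) were under 1 and their median was 0.835. Of the 5p values, 24 of 84 (28.6%) were under 1, with a median of 5.71. Over all probes, 2005 of 11400 values (17.6%) were under 1, and the median was 13.2.

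The 5p arms split into 2 bright probes and a remainder near the blanks. The brightest was miR-290a-5p, with signals of 509.5, 432 and 299.6 in db/db, against 1204, 604 and 276 in db/+. Its ratio to the blank median lay between 4.10 and 12.4. The second, miR-292a-5p, had signals of 163, 103 and 134 in db/db, against 374, 251 and 98.1 in db/+, and its ratio lay between 1.82 and 3.93. These 2 were the only members above the blanks on all 6 arrays (7.14% of members), whereas 671 of all 1900 probes (35.3%) were. They were also the only members above the blanks on all of the 4 arrays outside the pair that stands apart (7.14%). Of all 1900 probes, 672 (35.4%) were above the blanks on all of these 4.

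Weaker signals came from miR-295-5p and miR-291b-5p, each above the blanks on 5 arrays. The signals of miR-295-5p were 90.5, 52.9 and 80.3 in db/db, against 144, 89.5 and 60.5 in db/+, and db/db replicate 2 was the array that fell short. Those of miR-291b-5p were 80.9, 64.2 and 105 in db/db, against 105, 66.8 and 52.0 in db/+, and db/+ replicate 2 fell short. The groups overlapped for both.

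A further 3 of the 5p arms passed the blanks on exactly 3 arrays, 1 of them db/db and 2 db/+. The signals of miR-290b-5p were 74.8, 47.2 and 69.8 in db/db, against 91.1, 74.0 and 50.2 in db/+. Those of miR-294-5p were 63.1, 41.2 and 54.4 in db/db, against 84.1, 67.9 and 46.8 in db/+. The only product of the miR-302 cluster among these was miR-367-5p, with signals of 54.4, 49.8 and 43.2 in db/db, against 129.5, 65.6 and 49.8 in db/+. It was also the only 1 of the 10 probes of that cluster (10%) above the blanks on any of the 4 arrays outside the pair. Of all 1900 probes, 1207 (63.5%) were. The other 5p arms, miR-291a-5p, miR-292b-5p, miR-293-5p and those of miR-302a, b, c and d, passed on at most 2 arrays.

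**Figure D2:**
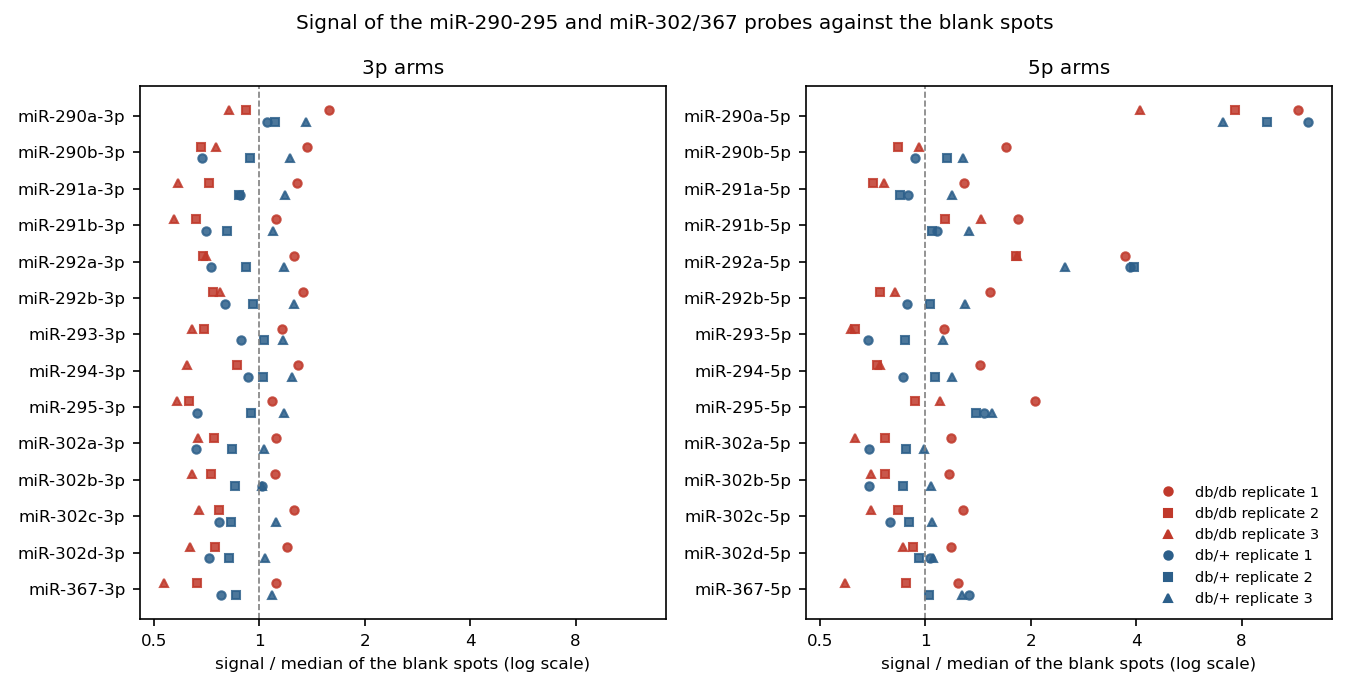
Signal of each of the 28 members as a ratio to the array's blank median (log axis), 1 point per array, with db/db above db/+ in each row, 3p and 5p arms in separate panels and a dashed line at the blank median. The 3p arms lie between 0.534 and 1.58, and miR-290a-5p stands highest, between 4.10 and 12.4.

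In total, 28, 3 and 4 members were above the blanks on the db/db arrays, against 5, 6 and 21 on the db/+ arrays, or 11.7 ± 14.2 in db/db and 10.7 ± 8.96 in db/+ (SD, n = 3 each). The mean difference of 1.00 was smaller than the spread within either group. Without the 2 arrays that stand apart it was -2. By the position-adjusted rule the counts were 22, 8 and 5 in db/db, against 13, 12 and 11 in db/+, and 5 members, all 5p arms, passed on all 6 arrays, against 864 of all 1900 probes (45.5%). On at least 3 arrays, 8 of 28 members (28.6%) were above the blanks, compared with 1181 of all 1900 probes (62.2%). Those 8 were 7 of the 14 5p arms and 1 of the 14 3p arms, while 511 of 785 5p probes on the array (65.1%) passed. The median log2 ratio to the blanks was lower for 3p than for 5p arms on every array, by a 3p minus 5p difference of -0.22 ± 0.076 in db/db and -0.17 ± 0.086 in db/+ (SD, n = 3 each). Over all probes with a named arm it was -0.11 ± 0.032 in db/db and -0.085 ± 0.032 in db/+. This difference also holds any difference in how the probes bind.

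The G run went with the brighter 5p arms. Of the 4 members with a run of at least 4 G, 3 (75%) were above the blanks on at least 3 arrays, and their median ratio to the blanks was 2.27. Of the 24 members without such a run, 5 (20.8%) passed on at least 3 arrays and 0 on all 6. By the position-adjusted rule, miR-290b-5p and miR-291b-5p, each with a longest run of 2 G, passed on all 6 arrays. So did the members with a run of at least 4 G other than miR-302c-5p. That member was the exception among the 4 under both rules, with signals of 56.3, 47.1 and 51.0 in db/db, against 77.1, 57.4 and 40.9 in db/+. The same ordering held among the other probes of the array. On at least 3 arrays, 163 of 201 with a run of at least 4 G (81.1%) were above the blanks. Of the 1671 with a shorter run or none, 1010 (60.4%) were. On all 6 arrays the counts were 119 (59.2%) and 550 (32.9%). The 22 other probes with no G at all had a higher median ratio, 3.26, than those with a run of at least 4, 1.59, so the order was not a steady one over G content. Without position adjustment, the 2 members above the blanks on all arrays were miR-290a-5p and miR-292a-5p. Both carry a run of 5 G, and its part in their signal was not tested.

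**Figure D3:**
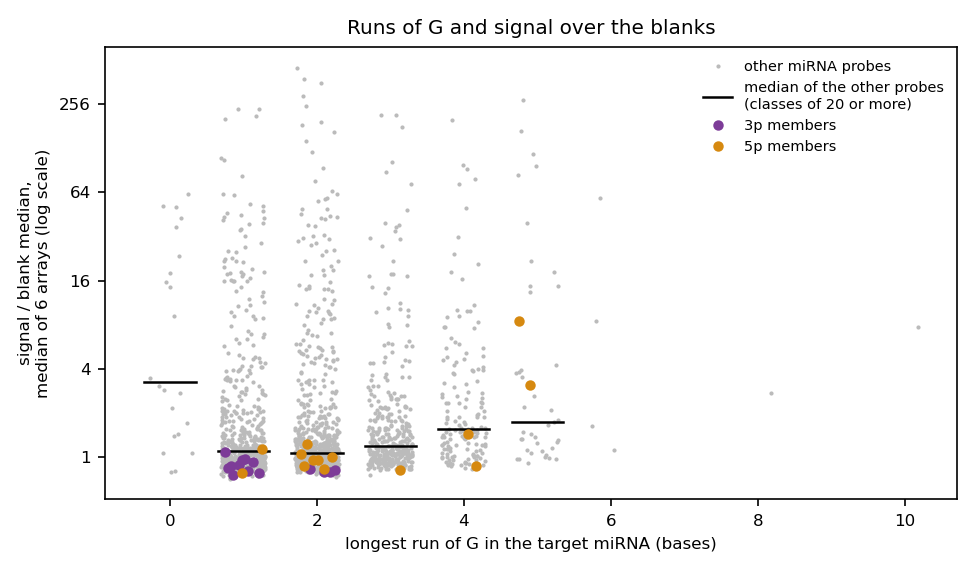
Signal over the blank median (median of 6 arrays, log axis) against the longest run of G in the target miRNA, 1 point per probe, with 3p and 5p members in colour and bars at the medians of the other probes for classes of at least 20. The 2 members with a run of 5 G, miR-290a-5p and miR-292a-5p, stand above the other 26.

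The design compares db/db with db/+ cells, and the 8 members above the blanks on at least 3 arrays were tested within the fit over all 1181 such probes. None of the 8 passed, and no probe of the array did (0.00%): the smallest adjusted p in limma was 0.108. At an unadjusted p under 0.05, limma gave 1 member, miR-292a-5p, and 59 of 1181 probes (5.0%), 25 of them lower in db/db like this member (2.12%) and 34 higher (2.88%). After normalisation, the groups did not overlap for 2 of the 8 members, with db/db below db/+ in both, against 114 probes (9.65%) in either direction and 66 (5.59%) with db/db below. These shares rest on few members, and in scanner signal the groups overlapped for those 2 members as well. Of the 2, miR-367-5p was tested because it passed the blanks on 2 db/+ arrays and on db/db replicate 1, where all 28 members passed. Its place below db/+ is therefore not independent of the rule that chose the tested probes. The log2 difference was below 0 for 6 of the 8 members, compared with 641 of 1181 probes (54.3%), and its median was -0.12 over the members and -0.023 over all tested probes. As these are bulk cultures, fewer cells that make a miRNA and less of it per cell cannot be told apart.

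The normalised log2 signals of miR-292a-5p were 7.80, 6.93 and 7.20 in db/db, against 8.03, 7.88 and 7.90 in db/+. Every db/db array was below every db/+ array, although the spread was wider in db/db, with means of 7.31 ± 0.44 in db/db and 7.94 ± 0.083 in db/+ (SD, n = 3 each). Before normalisation the groups overlapped, since db/+ replicate 3 had the lowest scanner signal of all arrays, 98.1. On the log2 scale db/db minus db/+ came to -0.63 (standard error 0.23, 95% interval -1.16 to -0.095), and the adjusted p in limma was 0.894 (0.0272 unadjusted). Leaving out db/db replicate 2 moved the difference to -0.43, and leaving out both arrays that stand apart moved it to -0.97.

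For miR-290a-5p, the normalised log2 signals were 9.60, 8.66 and 8.11 in db/db, against 9.72, 9.0 and 9.43 in db/+. The difference had a similar size, -0.59, but a wider error of 0.38 and an interval of -1.50 to 0.31, and the groups overlapped through db/db replicate 1 (adjusted p in limma = 0.894). It moved most with single db/db arrays left out, to -1.01 without db/db replicate 1 and to -0.26 without db/db replicate 3.

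The other member whose groups did not overlap was miR-367-5p, with 6.09, 6.21 and 5.99 in db/db, against 6.62, 6.21 and 6.36 in db/+. The nearest arrays of the groups, replicate 2 of each, were equal to 2 decimals, and db/db minus db/+ was -0.30 (standard error 0.15). It moved to -0.18 without db/+ replicate 1 and to -0.60 in the authors' table. The sole member with a difference of similar size in the other direction was miR-291b-5p, with 6.64, 6.46 and 6.88 in db/db, against 6.38, 6.23 and 6.48 in db/+. Here db/db minus db/+ was 0.30 (standard error 0.15, interval -0.063 to 0.66), and it moved to 0.18 without db/db replicate 3, 0.69 in the authors' table and 0.99 with the blank median subtracted. The remaining tested members lay closer to 0, with differences of -0.17 for miR-295-5p, -0.074 for miR-290a-3p, 0.053 for miR-290b-5p and -0.025 for miR-294-5p. Their adjusted p-values in limma lay between 0.911 and 0.970. Of these, miR-295-5p moved to -0.027 without db/db replicate 2 and to -0.61 with the blank median subtracted.

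**Figure D4:**
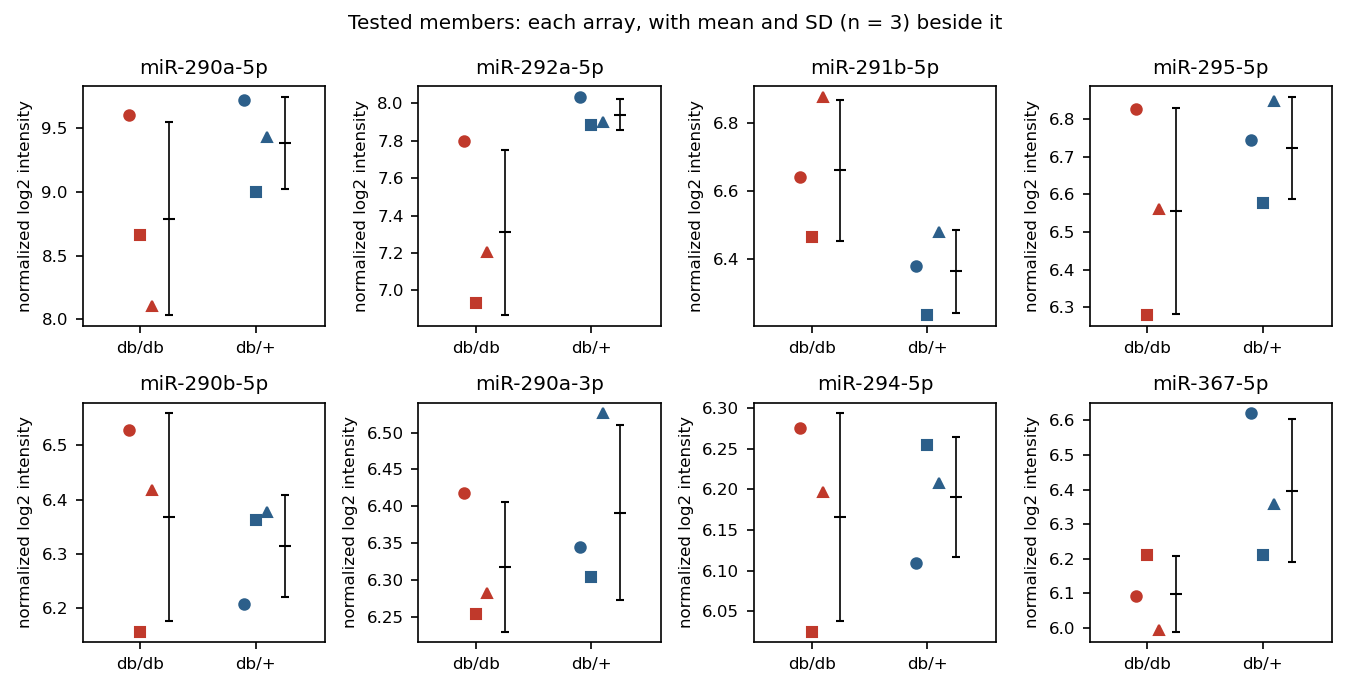
Normalised log2 signal of the 8 tested members, 1 point per array (circle, square and triangle for replicates 1, 2 and 3), db/db left of db/+, with each group's mean and SD (n = 3) beside the points and a separate vertical range in each panel. Every db/db array of miR-292a-5p is below every db/+ array, while the groups of miR-290a-5p overlap.

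**Figure D5:**
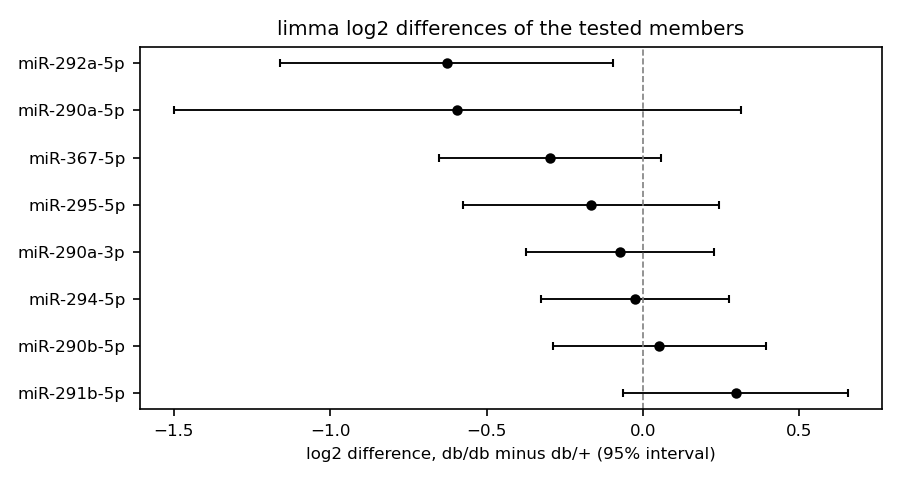
Log2 difference (db/db minus db/+) of the 8 tested members from limma, with 95% intervals and a dashed line at 0. The unadjusted interval of miR-292a-5p, -1.16 to -0.095, is the only one of the 8 that does not include 0.

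With the requirement for signal above the blanks dropped, all 28 members could be placed, 13 with a log2 difference above 0 and 15 below, with a median of -0.012 beside -0.011 for all 1900 probes. Among the 14 3p arms 6 were above 0 and 8 below, and their differences ran from -0.15 to 0.11. Those of the 5p arms ran from -0.63 to 0.30. Since the 3p signals lie close to the blanks, no fold change is read from these values.

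The relatives by seed were measured on the same arrays. All 6 probes of the miR-17 family, whose seed resembles AAGUGCU and which is known for promoting proliferation, were above the blanks on all 6 arrays, at 5.60 to 56.2 times the blank median. None passed the test: 1 was above 0 and 5 below, with a median log2 difference of -0.29, and the 2 with the smallest p were miR-106b-5p at -0.41 and miR-93-5p at -0.40 (adjusted p in limma = 0.894 each). On db/+ replicate 3 both had their highest normalised value. Of the 5 probes numbered miR-467 on the 5p arm, 4 were tested and none passed, with 1 above 0, 3 below and a median of -0.044. Among them miR-467a-5p, which has the seed of miR-290a-3p, had a log2 difference of -0.29, and miR-467e-5p one of -0.062.

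Of the 5 probes with the seed of miR-367-3p, 3 were tested and none passed, with a median log2 difference of -0.15. For miR-92a-3p, a product of the miR-17-92 cluster, the normalised log2 signals were 8.54, 8.01 and 7.84 in db/db, against 9.14, 8.81 and 9.03 in db/+. The groups did not overlap, and db/db minus db/+ was -0.86 (standard error 0.21), which did not pass adjustment in limma (adjusted p = 0.749). The other 2 tested were miR-92b-3p at -0.15 and miR-25-3p at 0.0018, both with overlapping groups, while miR-32-5p and miR-363-3p did not pass the blanks on enough arrays.

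The let-7 family, which accumulates as cells differentiate and opposes the stem-cell seed family in mouse embryonic stem cells, was above the blanks on all 6 arrays with all 9 probes, at 1.6 to 114 times the blank median. None passed, with 7 above 0, 2 below and a median log2 difference of 0.15. Those with the smallest p were let-7e-5p at 0.43 and let-7i-5p at -0.20. Of 6 miRNAs reported to act on Oct4, Sox2, Nanog or Klf4 transcripts, all were tested and none passed, with 1 above 0, 5 below and a median of -0.097. The pair with the smallest p was miR-145a-5p at -0.28 and miR-134-5p at -0.21. Each of these medians stands beside -0.023 for all tested probes.

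The labelled cell type was set against miRNA markers of the cells such a culture could hold. The endothelial marker miR-126a-3p lay at 15.6 to 35.7 times the blank median, while its partner strand miR-126a-5p lay at 0.602 to 1.15 times. The blood cell marker miR-142a had ratios of 1.57 to 12.9 for its 3p arm and 6.77 to 28.0 for its 5p arm, and the myeloid miR-223-3p had 96.1 to 282. The erythroid miR-451a lay at 3.99 to 25.8, and miR-144-3p, from the same transcript, at 0.566 to 1.15. All 5 stromal probes were above the blanks on all arrays, at 11.9 to 113. The stromal, miR-142a and miR-223-3p probes were thus above the blanks on all 6 arrays, as were 1 of the 2 endothelial and 1 of the 2 erythroid probes. The other endothelial and erythroid probes, miR-126a-5p and miR-144-3p, lay close to the blanks, so these 2 markers were mixed. The 3p arms, taken as markers of pluripotent stem cells, also lay close to the blanks.

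These markers differed between the groups without passing the test. The log2 difference was 0.95 for miR-142a-3p, 0.68 for miR-142a-5p and 0.55 for miR-223-3p. It was -0.60 for miR-451a, -0.33 for miR-126a-3p and between -0.68 and -0.28 for the 5 stromal probes, all 5 below 0. Among the tested members, miR-290a-5p and miR-292a-5p were also below 0, as were 54.3% of all tested probes, while miR-291b-5p was above 0. The part of cell composition in these differences was not tested.

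The tested probes outside the clusters whose profiles over the 6 arrays were nearest to that of miR-290a-5p were miR-6954-5p, miR-680 and miR-8102. Likeness was the mean absolute difference of log2 profiles after each probe's own mean was removed, and it was 0.067, 0.121 and 0.177 for these 3, against a median of 0.514 over all tested probes. Each of the 3 has a longest run of 5 G, as miR-290a-5p has, and 36 of the 1173 other tested probes (3.07%) have one. This overlap was seen after the probes had been chosen and was not tested. Their log2 differences between db/db and db/+ were -0.60, -0.49 and -0.79. Choosing them by profile favours values near the -0.59 of miR-290a-5p, so these are not a separate observation. Of the 163 other tested probes with a run of at least 4 G, 82 (50.3%) were below 0, with a median of -0.0010. Of the 1010 with a shorter run or none, 553 (54.8%) were below 0, with a median of -0.023.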

How the data were processed

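Total RNA of 3 db/db and 3 db/+ samples was poly(A)-tailed, tagged and stained with Cy5 on single-colour miRNA arrays, per the labels' protocols. The deposited scanner files give a median intensity per spot on a linear scale, with no local background, per the file headers. The authors' deposited value table gives 1 background-subtracted, scaled intensity per probe by a method not given in the sources used here; it ranks like the scanner values and was an alternative. No sample column was left unmapped. Intensities were corrected with normexp (offset 50, all spots), quantile-normalised over miRNA spots, put on the log2 scale, averaged over 2 spots and compared with lmFit and eBayes (limma 3.58.1, R 4.3.3) with two-sided p-values, Benjamini-Hochberg adjusted over all 1181 tested probes at 0.05. A probe was tested if above the 95th percentile of the 4 blanks on at least 3 arrays. The procedure was tested on simulated data. Pairs of arrays correlated between 0.928 and 0.984, and none held identical values. Replicate numbers did not pair the samples (correlations of same-numbered deviations -0.039, -0.0028 and 0.033). Between arrays of different numbers these correlations ran from -0.367 to 0.366. The lowest was between db/db replicate 1 and db/+ replicate 2. The highest was between db/db replicate 1 and db/+ replicate 3, the arrays that stand apart.

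Members and lists were chosen with earlier results of these data known. By rule, all members were named. Values by array were given for the 7 members the definition lists, for members above the blanks on at least 3 arrays and for those with an unadjusted p under 0.05. Also named were the 2 tested probes of each list with the smallest p, the markers, and the 3 probes most like the brightest member; miR-302c-5p, miR-25-3p and the table's summaries were added after their values were seen. Alternatives covered background, normalisation, detection, spots, leaving out arrays and a replicate block.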

Additional observations from a re-analysis of the deposited data

How the results depend on the processing

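No member passed the limma test in any of the settings tried, and the count of members called was 0 in each. The count over all tested probes, 0 as reported, became 1 with 75th percentile scaling, a normexp offset of 16, the authors' value table, only probes above the blanks on all 6 arrays, or the first spot only, and 2 with a trended and robust eBayes. With single arrays left out it ran from 0 to 3, with 3 without db/db replicate 2. With the replicate number as a block it was 0, and the block changed no call of a member; the numbers do not pair the samples. The 3p minus 5p difference was below 0 in every setting. In db/db it moved to -0.51 with means over probes, -0.41 for the miR-290 cluster alone, -0.12 for the miR-302 cluster alone, -0.37 in the authors' table and -0.12 without the members with a run of at least 4 G, a setting added after the data were seen. In db/+ it moved to -0.48 with means, -0.051 for the miR-302 cluster alone and -0.34 in the authors' table. With single arrays left out it ran from -0.25 to -0.18 in db/db and from -0.22 to -0.14 in db/+. The difference in members above the blanks, 1.00 as reported, ran from -7.17, without db/db replicate 1, to 6.17, without db/+ replicate 3, and was also below 0 without both of these arrays (-2), without db/+ replicate 1 (-1.83) or db/+ replicate 2 (-1.33), above the blank median (-3.67), with the first spot only (-1) and by the position-adjusted rule (-0.333), so it has no settled sign. Near 0, miR-294-5p turned to 0.091 with the blank median subtracted, 0.013 in the authors' table, 0.0024 with the second spot only and 0.045 with position-adjusted signal, and ran from -0.081 to 0.045 with single arrays left out, above 0 without replicate 2 of either group. Likewise miR-290b-5p ran from -0.028 to 0.158, below 0 without replicate 1 of either group, and the cause of these changes was not tested. Over all settings miR-367-5p ran from -0.60 to -0.18, miR-295-5p from -0.61 to -0.027, miR-290a-3p from -0.14 to -0.0070 and miR-291b-5p from 0.18 to 0.99. The difference for miR-292a-5p stayed below 0 in all settings, from -1.11 to -0.43, with an adjusted p in limma from 0.509 to 1. Signals near the blanks limit what can be said of the 3p arms, since 4 blanks in a single row define the background.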
